A study of Rattus norvegicus with 6 samples.

Results

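The genes described here carry peptides onto MHC class I molecules, and they are B2m, Tap1, Tap2, Tapbp, Psmb8, Psmb9, Psmb10, Nlrc5 and Erap1. These 9 symbols were looked up by exact match in the table of liver genes and took 10 of its 19616 rows, because Tap2 stands for 2 Ensembl identifiers. The samples were livers of male SD rats with 1 library per rat, and the age of the rats was not given in the sources used here. The FL group (rats FL2, FL5 and FL12, disease state fibrosis) had received CCl4, a solvent that injures hepatocytes, mixed with olive oil and injected intraperitoneally over 5 weeks, with 2 injections of 2 mL/kg in each week. The CL group (rats CL5, CL6 and CL7, disease state normal) had received the same volume of olive oil. No genetic change was stated for either group. RNA was taken from whole liver tissue, so fewer cells of a type and less RNA per cell cannot be told apart.

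MHC class I molecules present short peptides from the inside of a cell to CD8 T cells. Proteasomes cut proteins into these peptides, and in immune cells and under interferon gamma the catalytic subunits Psmb8, Psmb9 and Psmb10 take the places of Psmb5, Psmb6 and Psmb7, which gives the immunoproteasome. The Tap1 and Tap2 proteins pump the peptides into the endoplasmic reticulum, and Tapbp (tapasin) bridges the pump to the waiting class I molecule. Erap1 trims the peptides, B2m is the light chain of every classical class I molecule, and Nlrc5 drives transcription of class I genes. Hepatocytes express little class I at rest, and leukocytes and sinusoidal cells express more.

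The immunoproteasome subunits Psmb10 and Psmb9 rose in the FL group, Psmb10 by 2.20-fold and Psmb9 by 1.66-fold. Psmb10 stood under 2-fold with median scaling or quantile normalization of the rats. The call of Psmb9 was lost with both and was kept in 5 of 14 alternative fits. For Tap1, Psmb8, Tapbp, Erap1 and Nlrc5 the fold of the FL over the CL group lay between 1.27 and 1.57 without passing the test, and for B2m it was 0.854. The 2 Tap2 entries were close to 0 FPKM and were not tested. Values are FPKM (fragments of a gene scaled to its transcript length and to the size of the library), listed for rats CL5, CL6 and CL7 and rats FL2, FL5 and FL12 in these orders, and differences are of log2(FPKM + 0.1), tested with limma and adjusted by the Benjamini-Hochberg method over the 14864 genes whose mean reached 0.1 FPKM. Of the 8 tested genes, 2 were higher at an adjusted p under 0.05, where 16.9% of all genes tested were, and 1 was also at least 2-fold higher, where 9.29% were. None was lower. The FL rats lay above the CL rats without overlap in 5 of the 8, against 35.7% of all genes tested. The median log2 difference was 0.51 over the 8 genes and 0.29 over all genes tested, which leaves the 8 at 0.22 above all genes (0.10 without FL2 and 0.46 without FL12).

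The general shift matters for reading these values. The median over all genes became 0.08 with median scaling of the rats and -0.04 with quantile normalization, and higher genes made up 90.9% of all genes called without scaling, 66.2% after quantile normalization and 82.0% after median scaling. The differences of the class I processing genes and the medians of the lists are therefore also set against the median of all genes ("relative"), and those of other single genes stand as they are. Relative depth was read from steps in the low values of U6 small nuclear RNA genes. It was 1 in CL5, 0.656 in CL6, 0.84 in CL7, 0.677 in FL2, 0.75 in FL5 and 0.677 in FL12. From 63.8% (FL5) to 88.6% (CL6) of these low values lay within 0.1 of a whole number of steps, so the depths are approximate. The absolute number of reads was not used here, so no counting interval is attached to a value.

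The immunoproteasome is formed by Psmb8, Psmb9 and Psmb10. Psmb10 (ENSRNOG00000019494, chromosome 19), the trypsin-like subunit also called MECL-1, read 5.29, 4.52 and 4.69 FPKM among CL rats, and 12.67, 8.21 and 11.92 FPKM among FL rats. Every FL rat lay above every CL rat, and FL5 was the lowest of the FL group. The means were 4.83 ± 0.405 and 10.9 ± 2.39 FPKM (SD, n = 3). On the log2 scale Psmb10 rose by 1.14 with a standard error of 0.18 (limma, adjusted p = 0.0069), or 0.85 relative to the median of all genes. Psmb10 passed the adjusted p threshold in each of the 14 alternative fits that bear on a single gene, with adjusted p-values from 0.00519 to 0.0372. It stood under 2-fold with median scaling (log2 fold change 0.92) and with quantile normalization (0.87).

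Psmb9 (ENSRNOG00000000459, chromosome 20), also called LMP2, the subunit that replaces Psmb6, read 4.49, 7.51 and 6.18 FPKM among CL rats. It read 9.61, 10.96 and 9.30 FPKM among FL rats, again without overlap. On the log2 scale Psmb9 rose by 0.73 with a standard error of 0.19 (limma, adjusted p = 0.0344), or 0.45 relative to the median of all genes (0.24 without CL5). This call was close to the threshold and was kept in 5 of 14 alternative fits, with adjusted p-values from 0.0292 to 0.142. It was lost with both scalings, without the filter on low values, without the trend in limma, and when any rat but CL6 was left out.

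Psmb8 (ENSRNOG00000000456, chromosome 20), also called LMP7, the chymotrypsin-like subunit, read 1.76, 3.14 and 1.90 FPKM among CL rats. In the FL rats it read 4.11, 3.51 and 2.97 FPKM. CL6 lay above FL12, so the groups overlapped in this pair of rats. The log2 difference was 0.65 with a standard error of 0.24 (95% interval 0.10 to 1.21, adjusted p = 0.095), or 0.36 when set against all genes (from 0.20 without FL2 to 0.58 without CL6), and without CL6 it was 0.90 with an adjusted p of 0.0387, while the adjusted p of all alternatives ran from 0.0387 to 0.547.

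**Figure D1:**
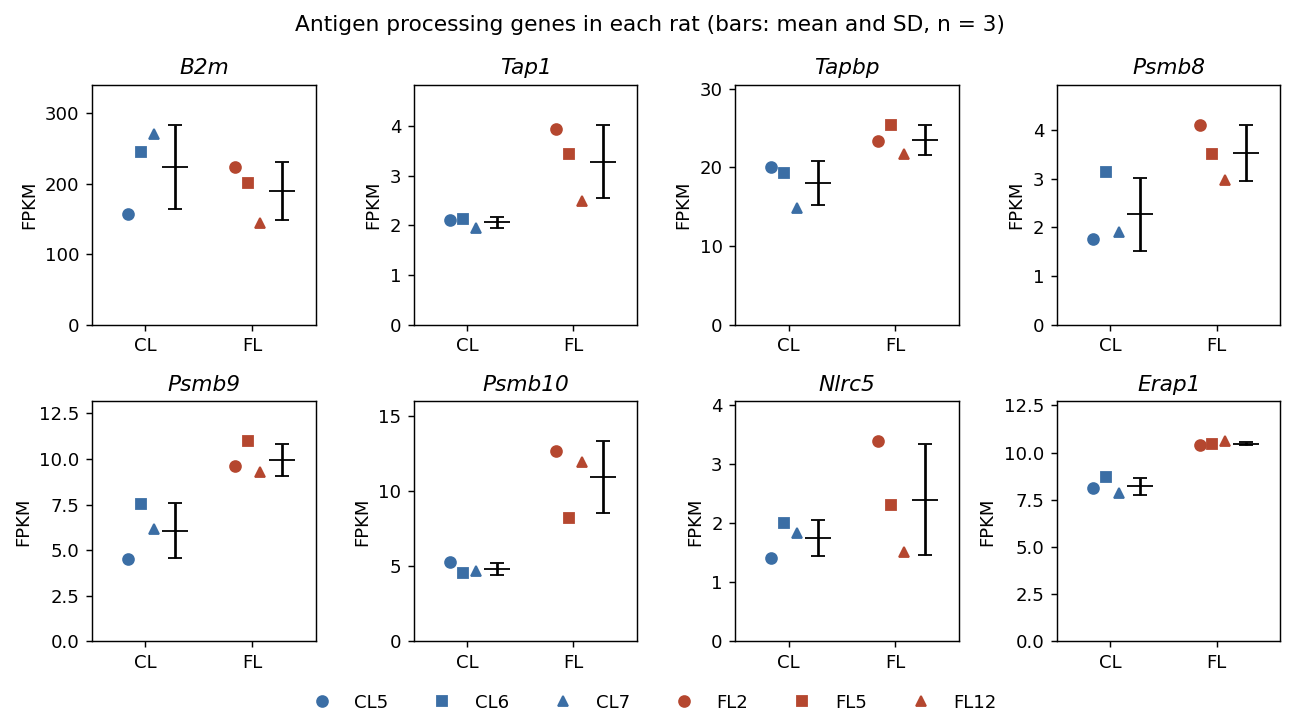
FPKM (y axis, from 0) of the 8 tested genes in each rat of the CL group (blue) and the FL group (red), with symbols for single rats and black bars for the mean and SD of 3 rats. Psmb10 is separated widest, from 4.52 to 5.29 FPKM among CL rats against 8.21 to 12.67 FPKM among FL rats, while the rats of both groups overlap for B2m, Psmb8 and Nlrc5.

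The constitutive counterparts, whose places Psmb8, Psmb9 and Psmb10 take, were set beside them as RNA levels of whole liver. Psmb5, the chymotrypsin-like subunit, had a mean of 21.3 FPKM among CL and 21.8 FPKM among FL rats, and its log2 difference was 0.04 (standard error 0.14, adjusted p = 0.873). Psmb7, the trypsin-like subunit, had a log2 difference of -0.00105 (standard error 0.15, adjusted p = 0.996). Psmb6, the caspase-like subunit, had the lowest level of the constitutive subunits and a log2 difference of -0.18 (standard error 0.30, adjusted p = 0.684). None of these 3 genes passed at an unadjusted p under 0.05 either (0 of 3, limma), and the median of the 3, set against all genes, was -0.29 (-0.18 with quantile normalization).

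The rest of the core particle held no gene that passed either. Of the 11 remaining 20S subunits (Psma1 to Psma7 and Psmb1 to Psmb4), 0 passed in limma and 2 had an unadjusted p under 0.05, with log2 differences from -0.12 for Psma3 to 0.35 for Psma7 and a median of -0.24 relative to all genes (-0.15 without CL5, -0.14 without FL12 and -0.04 with quantile normalization). Their summed level was 289, 274 and 227 FPKM among CL rats and 287, 283 and 265 FPKM among FL rats. Psmb1 and Psma4 were the most abundant of them, and for Psma4 the log2 difference was 0.31 (adjusted p = 0.0885). Of 4 genes of proteasome activators and assembly, 0 passed in limma and 0 had an unadjusted p under 0.05, the relative median was -0.20 (0.05 with quantile normalization), and 1 passed without CL6. Psme1 and Psme2, which form the interferon-inducible cap PA28, had log2 differences of 0.18 (adjusted p = 0.382) and 0.33 (adjusted p = 0.247).

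The level of each immunoproteasome subunit was then divided by that of its constitutive counterpart within each rat. This removes any factor common to all genes of a rat, but not the effect of quantile normalization, which was not run for the ratios. Psmb10 to Psmb7 was 0.489, 0.369 and 0.535 in CL5, CL6 and CL7 and 1.15, 0.76 and 1.22 in FL2, FL5 and FL12. The FL rats all lay above the CL rats, and in FL2 and FL12 the inducible subunit had the higher level of the pair. Psmb8 to Psmb5 was 0.0784, 0.131 and 0.108 in the CL rats and 0.176, 0.178 and 0.134 in the FL rats, also without overlap but with CL6 close to FL12. Psmb9 to Psmb6 was 1.72, 3.65 and 5.37 in the CL rats and 5.31, 8.37 and 5.28 in the FL rats, and CL7 lay above FL2 and FL12. These ratios over 1 rest on a low denominator. Psmb6 had a mean of 1.94 FPKM in the CL group, against 21.3 FPKM for Psmb5 and 10.6 FPKM for Psmb7. Whether reads of Psmb6 were undercounted was not tested.

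The log2 ratio was higher in the FL group by 1.16 for Psmb10 to Psmb7, by 0.64 for Psmb8 to Psmb5 and by 0.93 for Psmb9 to Psmb6. The last value was 0.48 without CL5, 0.54 for medians over the rats and 1.30 without CL7. In exact two-sided permutation tests over the 6 rats the p was 0.1, 0.1 and 0.3 for these 3 ratios, and 0.15, 0.15 and 0.3 after adjustment over the 3. With 3 rats against 3 the smallest p that can be reached is 0.1, so no ratio could pass a threshold of 0.05.

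**Figure D2:**
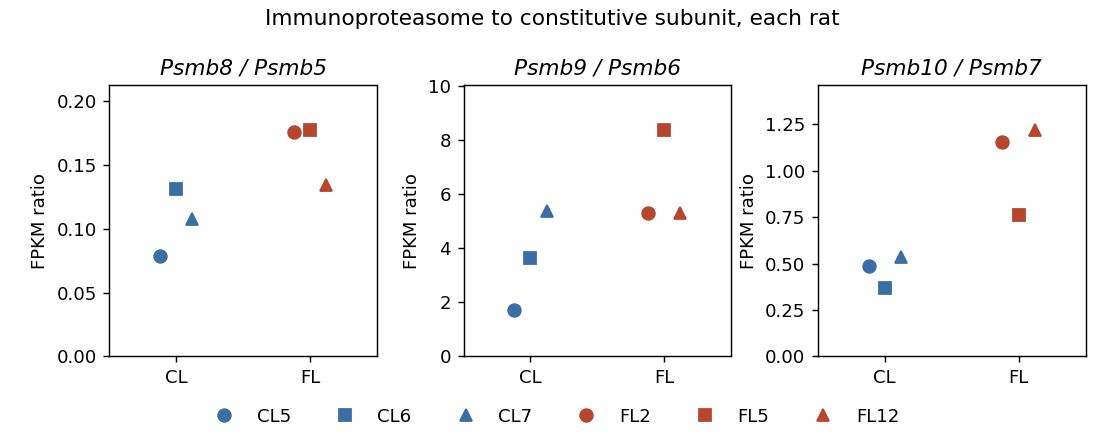
Ratio of FPKM (y axis, from 0) of each immunoproteasome subunit to the constitutive subunit it replaces, with 1 symbol per rat of the CL group (blue) and the FL group (red). The groups are apart for Psmb10 to Psmb7 (0.369 to 0.535 against 0.76 to 1.22) and for Psmb8 to Psmb5, and overlap for Psmb9 to Psmb6.

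Peptide transport and loading rest on Tap1, Tap2 and Tapbp. Tap1 (ENSRNOG00000000457, chromosome 20), one half-transporter of the peptide pump, read 2.10, 2.13 and 1.94 FPKM among CL rats and 3.93, 3.44 and 2.48 FPKM among FL rats. The CL rats lay close together and all FL rats above them, with FL12 nearest. The log2 difference was 0.63 with a standard error of 0.19 (adjusted p = 0.0573), just over the threshold, or 0.34 relative to the median of all genes (from 0.15 without FL2 to 0.55 without FL12). Without FL12 it was 0.81 with an adjusted p of 0.0292, with a minimum mean of 1 FPKM the adjusted p was 0.0472, and over the alternatives it ran from 0.0292 to 0.574.

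Tap2, the partner half-transporter, was listed near 0 in each rat. The first entry (ENSRNOG00000046031, chromosome 20) read 0.02, 0.02 and 0.07 FPKM among CL rats and 0.06, 0.01 and 0.10 FPKM among FL rats. The other entry (ENSRNOG00000000455, chromosome 20) was listed at 0 in each CL rat and in FL12, and at 0.04 and 0.06 FPKM in FL2 and FL5. Both were under the mean of 0.1 FPKM needed for the test, and no fold is given. The pump needs both proteins, and Tap1 read 2.06 ± 0.102 FPKM in the CL group. The authors counted uniquely placed reads, and the part that 2 entries under 1 symbol had in the low Tap2 values was not tested.

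Tapbp (ENSRNOG00000029500, chromosome 20) read 20, 19.3 and 14.8 FPKM among CL rats and 23.4, 25.4 and 21.7 FPKM among FL rats. All FL rats lay above all CL rats by a small margin. The log2 difference was 0.39 with a standard error of 0.14 (adjusted p = 0.095), and set against the median of all genes it was 0.10, from -0.013 without CL7 to 0.29 with quantile normalization. Of 6 other genes of the endoplasmic reticulum, the chaperones and folding enzymes Calr, Canx, Pdia3 and Hspa5, the class I peptide editor Tapbpl and the translocon subunit Sec61a1, 0 passed in limma and 1, Sec61a1, had an unadjusted p under 0.05. The relative median of the 6 was -0.14, and it was -0.38 without FL2, -0.07 without CL5, -0.06 without FL5, 0.10 without FL12 and 0.27 with quantile normalization. Calr, a lectin chaperone of the loading complex, read 985 FPKM in FL2 against 585 and 404 FPKM in FL5 and FL12. Hspa5, the chaperone BiP, read 421 FPKM in FL2 against 219 and 188 FPKM in FL5 and FL12. FL2 was thus the highest of the FL rats for both, and 1 of the 6 genes passed without FL12.

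Erap1 (ENSRNOG00000009997, chromosome 2), the trimming peptidase, had the smallest standard error of the 8 tested genes. It read 8.10, 8.72 and 7.85 FPKM among CL rats and 10.42, 10.43 and 10.59 FPKM among FL rats. The groups did not overlap, but the log2 difference was 0.35 with a standard error of 0.11 (95% interval 0.10 to 0.59, adjusted p = 0.0556), and only 0.06 when set against the median of all genes (from 0.014 without FL2 to 0.15 with quantile normalization). Of 8 other peptidases of the peptide pool that were tested, 2 rose, beside 16.9% of all genes tested, and their median relative to all genes was -0.14 (0.07 with quantile normalization). Thop1, a cytosolic oligopeptidase, had a log2 fold change of 0.93 (adjusted p = 0.0221), and Dnpep, an aspartyl aminopeptidase, one of 0.48 (adjusted p = 0.032). Lap3, the most abundant, had a log2 difference of 0.14 (adjusted p = 0.416), and Dnpep was next in level. Of the 8, 1 passed with median scaling, without the trend in limma and without CL6 or FL12, and 0 passed in limma with quantile normalization and without CL5, CL7 or FL5.

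B2m (ENSRNOG00000017123, chromosome 3) was the most abundant gene of the set, with 157, 244 and 270 FPKM among CL rats and 224, 200 and 144 FPKM among FL rats. The groups overlapped, and each held a rat near the lowest value. The log2 difference was -0.23 (standard error 0.25, 95% interval -0.81 to 0.36, adjusted p = 0.548), or -0.52 relative to the median of all genes. The relative value ran from -0.76 without CL5 to -0.07 with quantile normalization and was -0.34 without CL7 and -0.30 without FL12. B2m had a negative difference in each of 14 alternative fits, from -0.47 without CL5 to -0.04 without FL12, and passed in 0 of them, with 0.39 as its unadjusted p.

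The class I heavy chains that B2m pairs with lie in the RT1 complex on chromosome 20. Some of them are close copies of each other, between which reads can be split or lost. Single values are therefore uncertain, and which of the genes this affects was not tested. Of 26 RT1 class I genes in the table, 21 were tested, 1 rose, beside 16.9% of all genes tested, and 0 fell, and the median log2 difference was 0.59, or 0.30 relative to all genes. The one that passed was RT1-M3-1, at 0.50, 0.80 and 0.49 FPKM among CL rats and 1.11, 1.29 and 1.04 FPKM among FL rats (adjusted p = 0.0481). The count of passing genes in limma was 0 with either scaling, a robust prior, no filter or a minimum mean of 1 FPKM and 0 without CL5, CL7 or FL5, and it was 2 without FL2 and 3 without FL12.

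Some heavy chain genes set single rats apart whatever the group. RT1-A2 read 29.3 and 22.8 FPKM in CL5 and CL7 but 1.89 FPKM in CL6, and 22.15, 27.06 and 20.70 FPKM among FL rats. RT1-A3 showed the reverse, with 4.98 FPKM in CL6, 0.02 FPKM in CL5 and a listing at 0 in each other rat. RT1-CE16 and RT1-CE10 were lowest in FL2, at 2.62 and 1.46 FPKM, against 9.26 and 6.33 FPKM in FL5 and 14.35 and 6.51 FPKM in FL12. RT1-S3, the most abundant, read 51.5, 46.9 and 53.3 FPKM among CL rats and 45.7, 46.0 and 35.5 FPKM among FL rats (adjusted p = 0.208). The median of the heavy chains relative to all genes moved with single rats, to 0.15 without CL5, 0.07 without CL6, -0.0077 without FL5 and 0.47 without FL12. That median was 0.11 with a pseudocount of 1 or without the filter, and 0.19 with a minimum mean of 1 FPKM or with quantile normalization. RT1-A2, RT1-A3, RT1-CE16 and RT1-CE10 were named after their values were seen, RT1-A2 also by its level. Summed over the 26 genes the level was 126, 96.6 and 119 FPKM among CL rats and 115, 144 and 114 FPKM among FL rats, with overlap.

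Nlrc5 (ENSRNOG00000048222, chromosome 19), the transactivator of class I genes, read 1.41, 2.01 and 1.83 FPKM among CL rats and 3.39, 2.31 and 1.51 FPKM among FL rats. FL12 lay within the CL group, and FL2 was the highest rat. The log2 difference was 0.38 (standard error 0.29, 95% interval -0.29 to 1.05, adjusted p = 0.377), or 0.09 when set against all genes (from -0.23 without FL2 to 0.40 without FL12), and it turned to -0.08 with quantile normalization. Its class II counterpart Ciita read 0.31, 0.29 and 0.46 FPKM among CL rats and 1.65, 1.46 and 1.32 FPKM among FL rats, and so rose by 1.81 on the log2 scale (limma, standard error 0.24, adjusted p = 0.00487). Ciita was the only gene of the 9 tested in the list of MHC promoter factors that rose at least 2-fold (9.29% of all genes tested did), 3 of the 9 passed (16.9% of all), and the relative median of the 9 was 0.12, with 0.20 without FL5. Rfx5, which binds the X box of MHC promoters, rose by 0.62 (adjusted p = 0.0385) and Nfkb1 by 0.64 (adjusted p = 0.0127) on the log2 scale, and Rela, the most abundant, had a log2 difference of 0.31 (adjusted p = 0.104). The number of these 9 that passed was 1 with quantile normalization and without CL7 or FL5, 2 with median scaling, without the filter and without CL5, CL6 or FL12, and 4 without FL2.

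Upstream of these genes, 4 of 11 tested genes of interferon gamma signalling and its factors rose and 0 fell, beside 16.9% of all genes tested that were higher. The median of the 11 relative to all genes was -0.02, but -0.14 without FL2, 0.09 without CL5, 0.08 without CL7, 0.38 without FL12 and 0.13 with quantile normalization. Ifngr1, the ligand-binding receptor chain, read 6.79, 6.88 and 6.90 FPKM among CL rats and 11.83, 18.65 and 14.22 FPKM among FL rats (log2 fold change 1.08, adjusted p = 0.00671). Ifngr2, the signalling chain, rose by 0.71 (adjusted p = 0.0162), the kinase Jak2 by 0.61 (adjusted p = 0.042) and Irf8, a factor of myeloid cells, by 0.999 (adjusted p = 0.00414) on the log2 scale. Jak1 and Stat2, the most abundant, had log2 differences of 0.13 (adjusted p = 0.461) and 0.27 (adjusted p = 0.4). The count of passing genes was 2 with either scaling and 2 without CL5, CL6, CL7 or FL5, and 3 without FL2, the trend or the filter.

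Irf1, a factor that acts directly on class I promoters, gave overlapping groups. It read 7.30, 6.73 and 8.16 FPKM among CL rats and 15.1, 8.83 and 8.09 FPKM among FL rats (adjusted p = 0.181). FL2 was the highest and FL12 the lowest of the FL group, the order that Tap1, Psmb8, Nlrc5 and B2m also had. Psmb10 and Psmb9, the genes that rose, had other orders of the FL rats, as did Tapbp and Erap1. Ifng itself was listed at 0.07 FPKM in CL6, at 0.26 FPKM in FL12 and at 0 in the other rats, and was not tested. Irf1 and Ifng were named after their values were seen, for their place in the pathway.

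**Figure D3:**
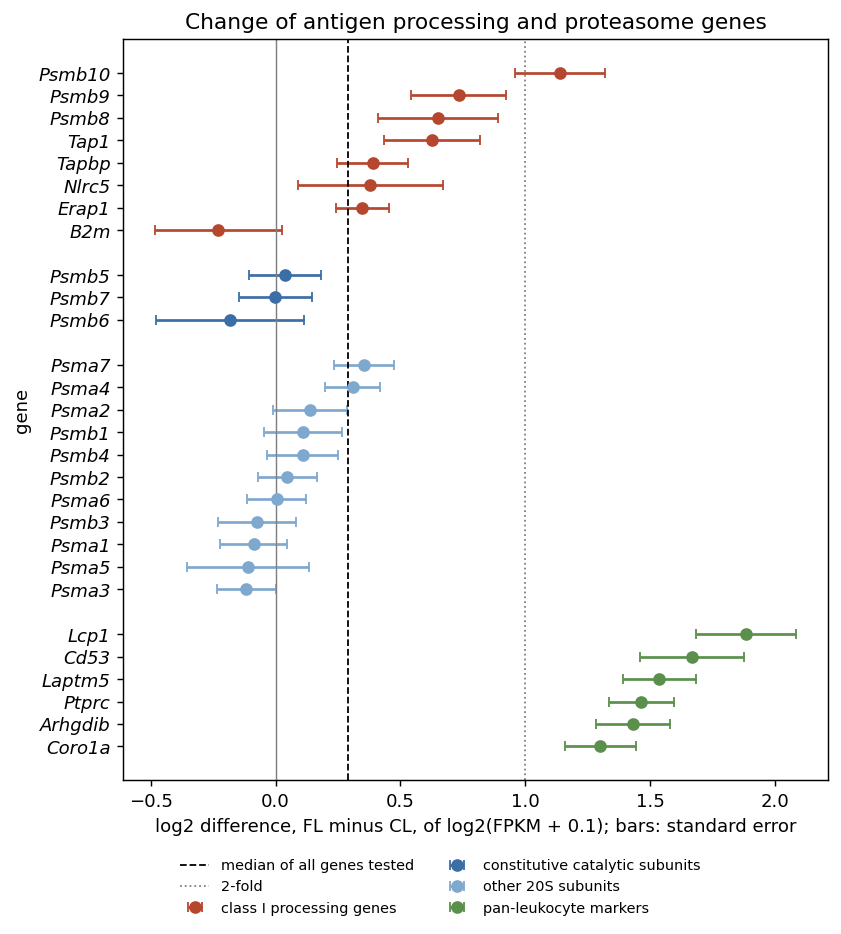
Differences of log2(FPKM + 0.1) between the FL and the CL group (x axis, bars are limma's standard errors) for the 8 tested class I processing genes, the 3 constitutive catalytic subunits, 11 other 20S proteasome subunits and 6 pan-leukocyte markers. The dashed line marks the median of all genes tested (0.29) and the dotted line a 2-fold change, past which lie Psmb10 and the leukocyte markers.

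The 6 tested pan-leukocyte markers of 7 lay higher in each FL rat than in each CL rat, as did 35.7% of all genes tested. All 6 rose, beside 16.9% of all genes tested, and 6 of 6 passed with either scaling. Their log2 fold changes ran from 1.30 for Coro1a to 1.88 for Lcp1, and Cd52, under the filter, was listed at 0 in CL5, CL7 and FL5. The summed level of the 7 was 26.4, 27.3 and 24.6 FPKM among CL rats and 69.1, 90.0 and 78.8 FPKM among FL rats, a ratio of 3.04, with Laptm5 the most abundant and a median log2 difference of 1.21 relative to all genes. Ptprc (CD45) read 3.19, 3.25 and 3.12 FPKM among CL rats and 8.12, 10.2 and 8.72 FPKM among FL rats. Psmb10 and Psmb9 are expressed in leukocytes, and the part of these markers in their rise was not tested.

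Macrophage and Kupffer cell markers summed to 163, 153 and 158 FPKM among CL rats and 351, 343 and 219 FPKM among FL rats. Of these 11 markers 5 rose (Marco, Cd68, Itgam, Lyz2 and Csf1r), beside 16.9% of all genes tested, with a relative median of 0.49 (0.33 without FL5 and 0.92 without FL12). The count was 5 with either scaling and 8 without FL12, none was listed at 0 in a rat, and Clec4f, the most abundant, had a log2 difference of -0.02 (adjusted p = 0.974). T cell markers summed to 11.7, 10.3 and 10.6 FPKM and to 23.4, 30.7 and 25.0 FPKM. Of 8 tested 4 rose (Cd8b, Cd2, Lck and Cd4), beside 16.9% of all genes tested. The relative median of the 8 was 0.86, and 0.31 with a pseudocount of 1, and Cd4, which rat macrophages also carry, was the most abundant. Of the defining CD3 chains, Cd3d and Cd3e did not pass (adjusted p = 0.783 and 0.44) and stayed at or under 0.66 FPKM. Cd3g did not pass either (log2 difference 1.40, unadjusted p = 0.0442 and adjusted p = 0.131 in limma), at 0.07, 0.11 and 0.48 FPKM among CL rats and 0.81, 1.03 and 0.27 FPKM among FL rats, with overlap. Cd5 was listed at 0 in FL12. The T cell count was 2 with median scaling, 1 with quantile normalization and 2 without CL5, CL6 or FL5.

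Of 7 tested markers of NK and cytotoxic cells 0 passed in limma and 0 had an unadjusted p under 0.05, with a relative median of -0.08 (-0.31 with quantile normalization, -0.01 with median scaling, -0.22 without FL2, -0.16 without CL6 and -0.03 without CL7). Their sums were 5.55, 4.88 and 6.40 FPKM among CL rats and 7.95, 7.89 and 4.78 FPKM among FL rats, with Klrk1 the most abundant and Gzmb and Gzmk listed at 0 in some rats. B cell markers (4 tested, 0 passed in limma, 1 with an unadjusted p under 0.05, relative median 0.37, from 0.025 with a pseudocount of 1 to 0.68 with one of 0.01, and 0.18 without CL7) summed to 1.43 ± 0.115 and 2.69 ± 0.647 FPKM (SD, n = 3), with Blk the most abundant and Ms4a1 and Pax5 among those listed at 0 in at least 1 rat, and 1 passed without FL12. Dendritic cell markers summed to 2.33 ± 0.15 and 4.63 ± 0.857 FPKM, and of 8 tested 1 rose, Itgax, beside 16.9% of all genes tested, with a relative median of 0.20 (from -0.05 with a pseudocount of 1 to 0.32 with one of 0.01, -0.04 with quantile normalization, 0.09 without CL6, 0.06 without FL2 and 0.10 without FL12), while Zbtb46 was the most abundant and Xcr1 and Clec9a, the defining genes of cross-presenting cells, did not pass (adjusted p = 0.554 and 0.475), and 2 passed without FL2 or the trend.

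Hepatocyte markers had the highest levels of all lists. The 10 were led by Alb with a mean of 28540 FPKM over the 6 rats, none was listed at 0 in a rat, and 0 passed in limma, with 1 at an unadjusted p under 0.05, Apoa1, which had a positive log2 difference of 0.73 (adjusted p = 0.1). Of the 10, 6 had a negative log2 difference. Without passing, Alb, Ttr, Ass1 and Hnf4a lay lower in each FL rat than in each CL rat, and Apoa1 and Tf lay higher. Of all genes tested, 35.7% lay higher in this way, and the share lying lower is not given here. The median of the 10 was -0.14, or -0.43 relative to all genes, and 0.18 relative to all genes with quantile normalization. In the fits without FL2, without the trend, with a robust prior or with a minimum mean of 1 FPKM, 1 of the 10 passed, as higher. Their sum was 50380 ± 1268 FPKM in the CL and 42820 ± 1023 FPKM in the FL group. Stellate cell and myofibroblast markers summed to 94.6 ± 4.39 and 441 ± 186 FPKM. Of 9 tested, 6 rose (Col3a1, Des, Pdgfrb, Col1a1, Reln and Rgs5), beside 16.9% of all genes tested, with a relative median of 1.40. Col3a1 was the most abundant, and 5 passed with either scaling and 8 without FL2. Endothelial markers summed to 75.1 ± 5.20 and 87.5 ± 6.49 FPKM, and 2 of 7 rose, Stab2 and Vwf, beside 16.9% of all genes tested, while 3 had a negative log2 difference, among them Kdr, the most abundant, at -0.21 (adjusted p = 0.354). Their relative median was 0.01 (from -0.11 without FL2 to 0.12 with quantile normalization, and of either sign when 1 rat was left out), with 1 that passed with either scaling, without the trend or without CL5, CL6, FL5 or FL12, and 0 in limma without CL7. Of 5 tested cholangiocyte markers (relative median 0.04, from -0.38 without FL12 to 0.29 without CL5) 0 passed in limma and 0 had an unadjusted p under 0.05, with sums of 6.26 ± 1.26 and 8.08 ± 2.71 FPKM, Epcam the most abundant, Cldn4 listed at 0 in CL6 and 1 that passed without the filter. Erythroid markers, which show blood left in the tissue, summed to 117 ± 33.6 and 72.3 ± 43.1 FPKM, and of 4 tested 0 passed in limma and 1 had an unadjusted p under 0.05, with a relative median of -1.03 (-1.55 without FL2 and -0.66 without FL5), Hbb the most abundant and Hbb-b1 listed at 0 in FL12, while 3 passed as lower without FL2. The part of these cells in the rise of Psmb10 and Psmb9 was not tested.

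Levels differed widely within the set, and FPKM allows the comparison per length. In the CL group the order of the levels was B2m, Tapbp, Erap1, Psmb9, Psmb10, Psmb8, Tap1 and Nlrc5. The spread of neighbours overlapped for Psmb9 and Psmb10 and for Psmb8, Tap1 and Nlrc5, while B2m and Tapbp stood clear of all others. In the FL group Psmb10 (8.21 to 12.67 FPKM) moved to the third place among overlapping values of Erap1 and Psmb9. B2m lay at the 98.9th percentile of the mean FPKM of all genes tested, Tapbp at the 89.8th and Nlrc5 at the 42.5th.

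Rats also differed within the FL group. Of the 8 tested genes, 5 were highest in FL2 (B2m, Tap1, Psmb8, Psmb10 and Nlrc5) and 6 were lowest in FL12. In the CL group 5 of the 8 were highest in CL6 and 4 lowest in CL5. Pearson's r of a gene with the mean of the other standardised genes of the set over the 6 rats was -0.095 for B2m and between 0.685 (Tapbp) and 0.936 (Psmb8) for the rest, as a description in which the points share the 2 groups.

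The 10 genes whose log2(FPKM + 0.1) followed the mean of the 8 standardised genes most closely over the 6 rats were Sirt7, Rara, Yipf5, Plcl2, RGD1308706, Pycr1, LOC100909464, Zc3h12a, Phlda1 and Mroh1. Their Pearson's r lay between 0.987 and 0.996, among 10527 genes whose mean reached 1 FPKM, of which 482 had an r over 0.9. Sirt7, the closest, read 5.17, 6.54 and 5.63 FPKM among CL rats and 9.18, 8.81 and 7.28 FPKM among FL rats. It thus shared the order of the rats, with CL6 highest in its group and FL12 lowest in its own.

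Promoter sequences and the order of genes were taken from RefSeq on the build GRCr8, while the build behind the FPKM values was not settled (the study names GRCh38, whereas the identifiers are those of rat genes). In RefSeq Tap2, Psmb8, Tap1 and Psmb9 are 4 consecutive genes on chromosome 20, and Tap1 and Psmb9 face away from each other, so that their promoter windows share 44 bases. Windows from 250 bases before to 50 bases after the start were at hand for 7 of the 9 symbols, all but Nlrc5 and Erap1. They were searched on both strands for an IRF element (GAAANNGAA), a GAS element (TTCNNNGAA), an NF-kB element (GGGANTTTC), a CRE half-site (TGACG) and a Y box (CCAAT), which are letters that factors of interferon and MHC control are known to bind. The IRF letters stood in 6 of the 7 windows and in 9.71% of all 33469 promoters, and the NF-kB letters in 3 of the 7 (B2m, Tap1 and Tapbp) and in 1.15% of all. The GAS letters stood in 1 (Psmb8; 8.87% of all), the CRE half-site in 2 (B2m and Psmb9; 21.2%) and the Y box in 3 (B2m, Psmb8 and Psmb9; 37.5%). No match to the IRF letters overlapped one to the NF-kB letters in these windows.

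Psmb10, the gene with the widest separation, held 3 matches to the IRF letters, which start at positions -73, -67 and -17 from the start of the gene, and the first pair overlap. At least 3 matches were found in 0.0508% of all promoters. Psmb9, the other gene that rose, was the one without a match, and the match of Tap1, which starts at position -120 of Tap1, lies outside the bases that the windows share. Tapbp, which did not pass, held 2 overlapping matches at positions -26 and -20, and B2m held 1 at position -150. A match is a description of letters and not a site of binding, and the data hold no measure of binding.

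The 160 bases before the start of these 4 genes are shown because they set the genes that rose beside those that did not, with matches to the IRF letters in capitals. They lie at chr19:50743293-50743452 (minus strand), chr20:4668840-4668999 (plus strand), chr20:4967878-4968037 (minus strand) and chr3:129549170-129549329 (plus strand) of GRCr8 and are written 5′ to 3′ on the strand of the gene.
Psmb10: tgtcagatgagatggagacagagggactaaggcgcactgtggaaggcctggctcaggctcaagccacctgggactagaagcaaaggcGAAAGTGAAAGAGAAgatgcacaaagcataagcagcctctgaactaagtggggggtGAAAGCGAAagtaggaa
Psmb9: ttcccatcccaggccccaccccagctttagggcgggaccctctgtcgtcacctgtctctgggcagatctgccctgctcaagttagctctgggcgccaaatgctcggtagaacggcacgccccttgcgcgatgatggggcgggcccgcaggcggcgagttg
Tapbp: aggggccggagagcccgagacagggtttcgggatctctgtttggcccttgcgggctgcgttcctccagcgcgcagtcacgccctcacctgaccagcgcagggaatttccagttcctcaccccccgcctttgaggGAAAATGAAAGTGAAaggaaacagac
B2m: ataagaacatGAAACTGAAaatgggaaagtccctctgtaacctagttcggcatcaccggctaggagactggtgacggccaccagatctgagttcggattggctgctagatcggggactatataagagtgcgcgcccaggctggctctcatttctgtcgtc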

How the data were processed

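Whole liver RNA without ribosomal RNA was sequenced from 3 CL and 3 FL rats. With FASTX-Toolkit for trimming and TopHat2 for alignment the authors made and deposited FPKM of uniquely mapped reads for each gene, with 2 decimals. The 2 further value columns of the table match no sample and were not used.

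log2(FPKM + 0.1) was compared with limma (prior variance following the mean) over the 14864 genes whose mean reached 0.1 FPKM. Adjusted p-values are Benjamini-Hochberg values over all genes tested, and genes were called at an adjusted p under 0.05 and, where stated, a fold change of at least 2. Ratios of subunits were tested by exact permutation over rats. The genes, the lists and the promoter motifs were chosen with earlier results of these data known. Named were all 9 symbols, genes of each list that passed or had the 2 highest levels, and the 10 most alike genes. Of the cell markers, those that passed (pan-leukocyte genes in part) and the most abundant are named. Other genes, named for a range, a lack of overlap, an unadjusted p, a 0 or a defining role, were chosen after their values were seen. Some genes of the lists are not reported here. Alternatives were pseudocounts of 1 and 0.01, no filter or a minimum mean of 1 FPKM, quantile normalization or median scaling, a robust prior or no trend in limma, no fold limit and each rat left out. Pairs of libraries shared 0.866% to 2.54% of identical values above 0, and each library was counted as its own sample. The procedure was tested on simulated data, but no result of that test is given here, and no value rests on it. R 4.3.3, limma 3.58.1, Python 3.11.15 and scipy 1.17.1 were used.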

Additional observations from a re-analysis of the deposited data

How the results depend on the processing

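Of all genes, 1381 were called higher and 139 lower in the FL group. The higher genes numbered 462 with a pseudocount of 1, 854 with a mean of at least 1 FPKM, 826 with median scaling, 453 with quantile normalization and 2518 without a fold limit, and from 740 (without CL7) to 1831 (without FL2) with 1 rat left out, with 745 without FL5. The lower genes numbered 72 with a pseudocount of 1, 231 with quantile normalization and 288 without a fold limit, and from 81 (without CL6 or CL7) to 160 (without FL2) with 1 rat left out. Of the class I processing genes, 1 (Psmb10) was called higher, 0 with median scaling or quantile normalization, where its difference falls under 2-fold, and 2 without a fold limit. The difference of Nlrc5 turned to -0.083 with quantile normalization, and the cause was not tested. The other tested genes kept their direction in all 14 fits, and the 3 subunit ratios kept theirs under each alternative. No paired analysis was possible because the groups share 1 rat number, 5, and nothing ties these rats. Read counts were not used here, so the spread of 3 rats is the error given.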
